A study of Mus musculus with 8 samples.

Results

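Ligands and receptors of the tumor necrosis factor (TNF) superfamily were followed in sorted Kupffer cells, the macrophages that reside in liver sinusoids. The 10 genes were taken from the deposited table by symbol, as ligands and receptors of macrophages: the ligands Tnf, Tnfsf9, Tnfsf4, Tnfsf10, Tnfsf13b, Tnfsf14 and Cd70 and the receptors Cd40, Tnfrsf1a and Tnfrsf1b. All 10 were found among 56691 genes, and 8 passed the filter on low counts. Tnfsf4 and Cd70 did not and are given as counts. Bulk RNA-seq covered 4 libraries of wild-type (WT) mice and 4 of Vsig4-/- (KO) mice, which lack the complement receptor and macrophage checkpoint Vsig4. All mice had been injected with B16F10 cells, a mouse melanoma line, and all livers bore metastases when cells were taken 7 days later. Living CD45+Tim-4+ cells were sorted in both groups, so no library comes from a tumor-free liver. The sources used here do not give the animals' strain, age or sex, nor whether each library is 1 animal, so the p-values cover only library-to-library spread, part of which may be technical.

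TNF superfamily ligands are trimeric proteins, mostly made in the membrane of the cell that displays them, and they act by clustering receptors on a neighbouring cell. Receptors with a death domain, such as TNFR1, can start either NF-kB signalling or cell death, while receptors without one recruit TRAF adaptors and mostly carry survival and costimulatory signals. Kupffer cells are a known source of TNF in the liver, and through CD40 and the costimulatory ligands macrophages exchange signals with T cells.

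Total counts ran from 15264043 to 19513844 per library. Vsig4, the deleted gene, had 40604, 46735, 22498 and 25498 counts in WT 1 to 4, and KO 1 to 4 held 9, 6, 2 and 4, as labelled. The Kupffer genes were detected in all libraries: 15 of 15 markers (Clec4f, Timd4, Cd5l and others, without Vsig4) reached an FPKM (fragments per kilobase of exon, scaled to library size) of 1, and their summed CPM (counts relative to the TMM-scaled library total) was 20110 to 35635 in WT and 7946 to 24464 in KO. Markers of other cells were present too, none of a list's genes at 0 in all libraries. The 10 melanoma genes summed to 566 to 6449 CPM in WT and 2859 to 14262 CPM in KO, of which Mitf and Gpnmb are also macrophage genes, and the 10 T cell genes to 80.6 to 247 CPM in WT and 53.8 to 217 CPM in KO. KO 3 stood apart, with the lowest Kupffer sum and the highest melanoma sum. In bulk samples, fewer cells of a type and less RNA per cell cannot be told apart.

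The 2 TNF receptors were the most abundant members. By FPKM, which allows genes to be compared per length, Tnfrsf1a (TNFR1, the death domain receptor) stood at 73.5 ± 14.8 in WT and 62.4 ± 15.9 in KO (SD, n = 4), and Tnfrsf1b (TNFR2, the receptor without a death domain) at 63.7 ± 13.7 in WT and 55.4 ± 15.6 in KO. The ratio of Tnfrsf1a to Tnfrsf1b FPKM lay above 1 in 8 of 8 libraries, from 1.03 in KO 4 to 1.26 in WT 4, with a mean of 1.16 ± 0.0799 in WT and 1.14 ± 0.0865 in KO (SD, n = 4). Across libraries the receptors' FPKM ranges overlapped widely, so their order was seen only within each library. Without division by length the order was the reverse in every library. Mean CPM was 198 for Tnfrsf1a and 254 for Tnfrsf1b in WT, and 158 and 206 in KO. The FPKM order thus rests on the deposited exonic sizes of 2591 and 3818 bases. Tnf came next at 13.3 ± 3.23 in WT and 10.04 ± 5.59 in KO, then Cd40 at 8.81 ± 1.13 and 6.53 ± 2.38, and Tnfsf10 at 4.41 ± 1.03 and 2.30 ± 1.21 FPKM. In WT these 3 did not overlap (10.07 to 17.8 FPKM for Tnf, 7.55 to 9.98 for Cd40 and 3.39 to 5.79 for Tnfsf10), while in KO neighbours in this order overlapped. Tnfsf14 at 1.97 ± 0.565 in WT and 1.94 ± 0.862 in KO, and Tnfsf9 at 1.08 ± 0.646 in WT and 1.96 ± 0.931 in KO, were not separated from each other in either genotype. Tnfsf13b, at 0.278 ± 0.120 and 0.175 ± 0.0580 FPKM, Tnfsf4 and Cd70 lay at the bottom.

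**Figure D1:**
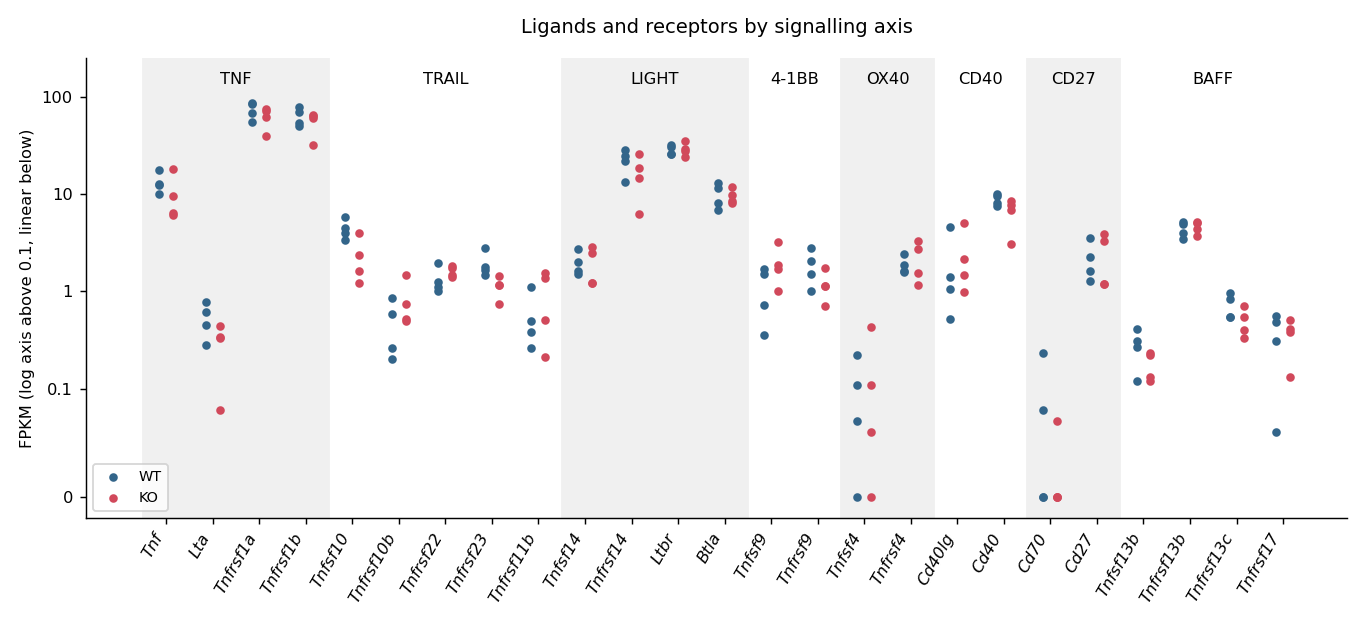
FPKM of the 10 members and of their binding partners, grouped by signalling axis; each point is 1 library (4 WT in blue, 4 KO in red), on an axis that is logarithmic above 0.1 and linear below. Tnfrsf1a and Tnfrsf1b lie at 32.3 to 86.8 FPKM in all libraries, while Tnfsf4 and Cd70 stay at or below 0.43.

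In the comparison of KO with WT, which asks how loss of Vsig4 changes these cells, no member passed the adjusted threshold of 0.05 in edgeR (0 of 8 tested, where 0.0063% of 15870 genes, Vsig4 alone, passed). DESeq2 and limma on log2(FPKM + 1) also called 0 of 8. At an unadjusted p under 0.05 in edgeR, 1 member, Tnfsf10, was lower in KO, beside 4.56% of all genes, and 0 were higher, beside 4.23%. Estimates were negative for 7 of 8 members, beside 7994 of 15870 genes, with a median log2 fold change (KO minus WT) of -0.41, against -0.0028 over all genes. With melanoma content as a covariate the members' median was -0.09 (all genes 0.01), and single members ran from -0.86 (Tnfsf13b) to 0.41 (Tnfsf14). When libraries were scaled by their Kupffer genes it was 0.38 (all genes 0.80). The genotypes overlapped in CPM for 8 of 8 members, where 2.85% of genes lay lower and 2.71% higher in all KO than in all WT libraries.

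A second fit took the replicate number of the titles as a block. Deviations from the genotype means correlated between libraries of equal number (0.290 to 0.660). However, WT 2, WT 4, KO 1 and KO 4 correlated better with a library of another number, so the data do not single out this pairing. The blocked fit called 2 of 8 members lower in KO, Tnfsf10 and Tnfrsf1a, beside 5.01% of all genes, and 0 higher, beside 8.98%. That fit depends on a pairing read from these data. Its count of members was 1 (Tnfsf10) without pair 1 or pair 4 and 0 without pair 2 or pair 3. In the same fit 10 of 10 melanoma genes rose and 10 of 16 Kupffer genes, Vsig4 included, fell, and their part in the members' calls was not tested. Paired by number, KO was lower in 4 of 4 pairs for Tnf, Tnfsf10, Tnfsf13b, Cd40 and Tnfrsf1a, and higher in 4 of 4 for Tnfsf9. For Tnfsf14 and Tnfrsf1b KO was higher in 1 pair. The share of all genes with 4 pairs in 1 direction was not counted, so these pair counts have no background to be read against. The Kupffer genes Clec4f and Timd4 were also lower in KO in 4 of 4 pairs.

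**Figure D2:**
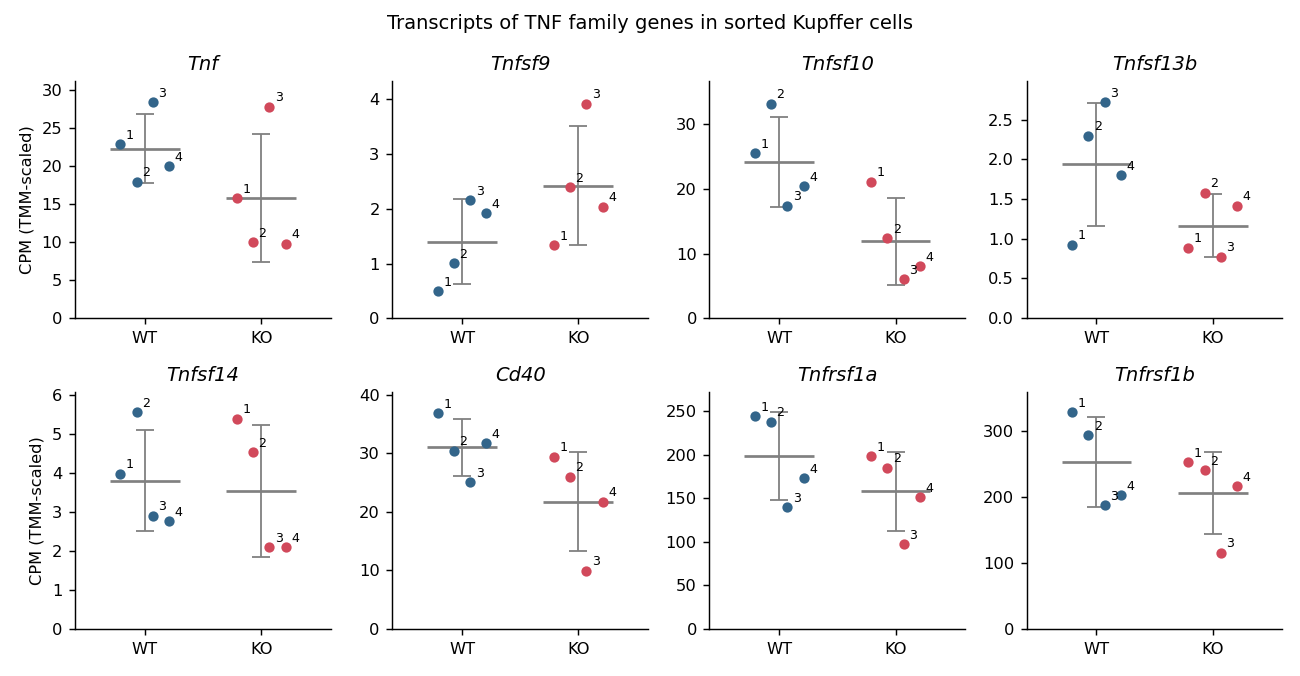
CPM of the 8 tested members in each library (points, numbered by replicate; blue WT, red KO), with the mean (line) and SD (bar) over 4 libraries. KO 3 is the lowest library for Cd40 and both TNF receptors and the highest for Tnfsf9.

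Tnfsf10 encodes TRAIL, a ligand that can trigger apoptosis in tumor cells and is induced by interferons. The gene (ENSMUSG00000039304, chromosome 3, 27371177 to 27396576, plus strand) is given in coordinates as deposited, which differ from its GRCm38 position. It had 25.6, 33.2, 17.4 and 20.5 CPM in WT 1 to 4 and 21.2, 12.4, 6.07 and 8.01 CPM in KO 1 to 4. KO 1 lay within the WT range and the other KO libraries below it. Means of 24.2 ± 6.92 CPM (WT) and 11.9 ± 6.71 CPM (KO; SD, n = 4) gave a 2.03-fold lower level (log2 fold change -1.02 ± 0.388 SE, 95% interval -1.91 to -0.14; edgeR adjusted p = 0.492). With the block Tnfsf10 fell by 1.13 ± 0.217 on the log2 scale (edgeR adjusted p = 0.0258). Without pair 2 or pair 3 the blocked value was -1.03 (adjusted p = 0.0799) or -1.01 (adjusted p = 0.0869). Of the 8 members only Tnfsf10 and Tnfsf13b kept a negative estimate when libraries were scaled by their Kupffer genes (-0.41, 95% interval -1.19 to 0.37, and -0.15), a scaling under which the median over all genes shifted to 0.80. With melanoma content as a covariate the estimate for Tnfsf10 was -0.56 (95% interval -1.15 to 0.035). The 6 natural killer (NK) cell genes summed to 141, 157, 94.8 and 117 CPM in WT 1 to 4. In KO 1 to 4 they summed to 125, 90.0, 41.8 and 62.2 CPM. The order of the 8 libraries was the same for Tnfsf10 as for the NK cell sum, a match noticed after the values were seen, among several members and marker lists. It was not particular to NK cells at the extremes. The Kupffer and plasmacytoid dendritic cell sums were also highest in WT 1, WT 2 and KO 1 and lowest in KO 3 and KO 4. The part of NK cells in the Tnfsf10 values was not tested.

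The receptors that TRAIL can meet in mice were all lowly expressed. Tnfrsf10b, the death receptor, had 0.475 ± 0.306 FPKM in WT and 0.803 ± 0.452 FPKM in KO. Of the decoy receptors, Tnfrsf22 had 1.33 ± 0.431 and 1.62 ± 0.194 FPKM. Tnfrsf23, the neighbouring decoy, had 2.79, 1.79, 1.49 and 1.67 FPKM in WT 1 to 4 and 1.43, 1.16, 0.74 and 1.16 FPKM in KO 1 to 4. Every KO library lay below every WT library for Tnfrsf23, alone among 14 tested partners, beside 2.85% of all genes in CPM. The margin was small, between 5.74 CPM in WT 3 and 5.72 CPM in KO 1. Estimates on the log2 scale were -0.88 ± 0.307 SE (edgeR adjusted p = 0.492) and, with the block, -0.87 ± 0.183 (adjusted p = 0.0291). Without pair 2 or pair 3 the blocked fit called 0 partners lower, Tnfrsf23 included. Melanoma and Kupffer genes moved in the blocked fit too, and their part in this call was not tested. Tnfrsf11b (osteoprotegerin), a soluble receptor that also binds TRAIL, had 0.558 ± 0.374 and 0.913 ± 0.653 FPKM and overlapped between genotypes.

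Tnf (ENSMUSG00000024401, chromosome 17, 35418357 to 35420983, minus strand) encodes the founding cytokine of the family, made by macrophages within minutes of stimulation from a message that ZFP36 destabilizes. It had 22.9, 18.0, 28.4 and 20.0 CPM in WT 1 to 4 and 15.8, 9.98, 27.8 and 9.79 CPM in KO 1 to 4. KO 1, KO 2 and KO 4 lay below all WT libraries, and KO 3 lay beside WT 3, the highest of all. The log2 fold change was -0.49 ± 0.343 SE (95% interval -1.27 to 0.29; edgeR adjusted p = 0.505), and -0.60 ± 0.175 with the block (adjusted p = 0.0571). Without KO 3 the estimate was -0.91 ± 0.233 (95% interval -1.45 to -0.37; adjusted p = 0.860), and without KO 4 it was -0.33 (adjusted p = 0.690). With the melanoma covariate it was -0.79 (95% interval -1.56 to -0.013; edgeR adjusted p = 0.687). With WT 1, WT 2 and KO 3 left out it was -1.03 (95% interval -1.66 to -0.39; edgeR adjusted p = 0.824). Scaled to Kupffer genes it was 0.56, and KO 3 then held 35.0 Tnf counts per 10000 Kupffer counts against 4.19 to 6.47 in the other KO and 5.12 to 14.1 in the WT libraries. Lta (lymphotoxin alpha), the ligand next to Tnf that shares its receptors, had 0.533 ± 0.216 FPKM in WT and 0.298 ± 0.153 FPKM in KO (log2 fold change -0.91 ± 0.533 SE, edgeR adjusted p = 0.492).

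Tnfrsf1a (ENSMUSG00000030341, chromosome 6, 125326325 to 125339447, plus strand) had 244, 238, 140 and 173 CPM in WT 1 to 4 and 198, 185, 97.3 and 151 CPM in KO 1 to 4. The WT libraries 1 and 2 were the highest and KO 3 the lowest, with the other 5 between. The log2 fold change was -0.33 ± 0.258 SE (95% interval -0.92 to 0.26; edgeR adjusted p = 0.530). With the block Tnfrsf1a fell by 0.34 ± 0.0933 on the log2 scale (adjusted p = 0.0486), a call lost when any of the 4 pairs was left out (adjusted p = 0.0626 to 0.197). Tnfrsf1b (ENSMUSG00000028599, chromosome 4, 144940033 to 144973440, minus strand) had 329, 294, 188 and 203 CPM in WT 1 to 4 and 253, 241, 116 and 216 CPM in KO 1 to 4, in the same order of libraries apart from WT 4 and KO 4 (log2 fold change -0.30 ± 0.279 SE, 95% interval -0.93 to 0.34; edgeR adjusted p = 0.580). Single libraries moved both estimates: without KO 3 they were -0.16 for Tnfrsf1a and -0.10 for Tnfrsf1b, and without WT 1 -0.22 and -0.14.

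The direction for both TNF receptors changed with the scale. Per 10000 counts of the Kupffer genes, Tnfrsf1a stood at 68.4, 67.5, 69.4 and 75.3 (WT 1 to 4) and at 80.9, 77.6, 122 and 81.9 (KO 1 to 4). For Tnfrsf1b the WT values were 92.4, 83.6, 93.5 and 88.4 and the KO values 103, 101, 145 and 117. On this scale all KO libraries lay above all WT libraries for both receptors, as did 6.41% of all genes. The log2 fold changes on it were 0.37 (adjusted p = 0.271) and 0.38 (adjusted p = 0.241), both below the shift of 0.80 in the median gene. With the melanoma covariate they were 0.069 and 0.13.

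Cd40 (ENSMUSG00000017652, chromosome 2, 164897547 to 164914868, plus strand) encodes the receptor through which helper T cells license antigen-presenting cells. It had 36.9, 30.4, 25.1 and 31.8 CPM in WT 1 to 4 and 29.4, 26.0, 9.94 and 21.7 CPM in KO 1 to 4, with KO 3 and KO 4 below all WT libraries. The log2 fold change was -0.51 ± 0.301 SE (95% interval -1.20 to 0.17; edgeR adjusted p = 0.492), -0.27 (adjusted p = 0.860) without KO 3 and 0.059 when scaled to Kupffer genes. Per 10000 Kupffer counts Cd40 was at 11.3 ± 2.29 in WT and 11.8 ± 0.674 in KO (SD, n = 4), and KO 3, at 12.5, was no longer apart. Its ligand Cd40lg, a T cell gene, had 0.52 to 4.57 FPKM in WT and 0.98 to 5.09 FPKM in KO.

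**Figure D3:**
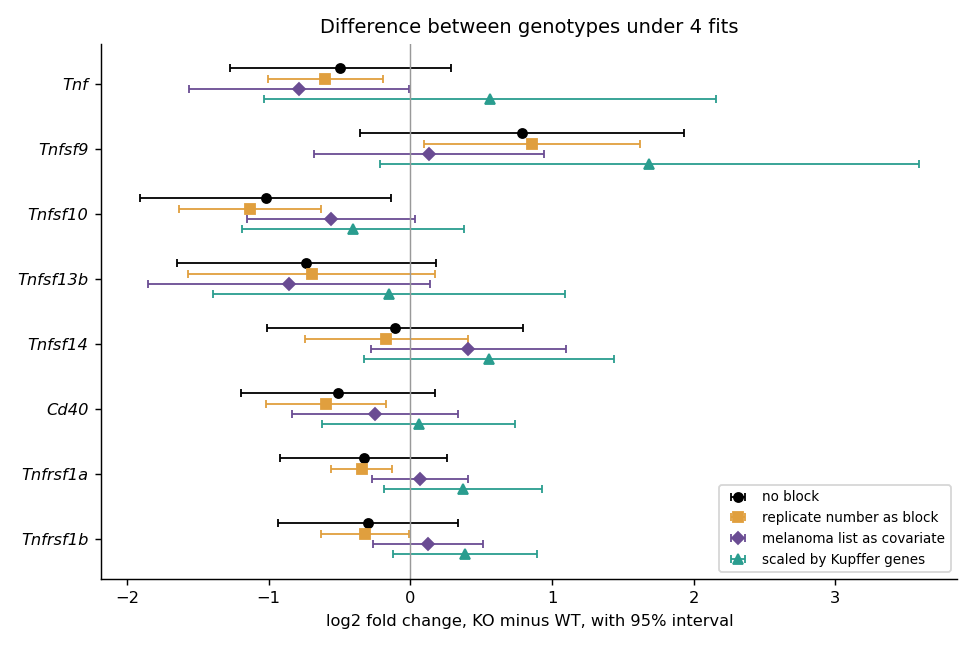
Log2 fold change (KO minus WT) of the 8 tested members with 95% intervals in 4 edgeR fits: without a block, with the replicate number as block, with the melanoma list as covariate, and scaled by the Kupffer genes. The estimates of Tnfsf10 and Tnfsf13b lie below 0 in all 4 fits, and Tnfrsf1a runs from -0.34 to 0.37.

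Tnfsf9 (ENSMUSG00000035678, chromosome 17, 57412325 to 57414757, plus strand), which encodes 4-1BBL, a costimulatory ligand for activated T and NK cells, was the only tested member with a positive estimate. It had 0.497, 1.01, 2.16 and 1.92 CPM in WT 1 to 4 and 1.33, 2.39, 3.92 and 2.04 CPM in KO 1 to 4, from 7 to 71 counts. The genotypes overlapped (log2 fold change 0.79 ± 0.502 SE, 95% interval -0.35 to 1.93; edgeR adjusted p = 0.494). The estimate was 0.46 without KO 3 and 0.52 without WT 1. The summed melanoma genes stood at 647, 566, 6449 and 5443 CPM in WT 1 to 4 and 2859, 4050, 14262 and 7352 CPM in KO 1 to 4. WT 1 and WT 2 were the lowest pair and KO 3 the highest library in both, and the part of melanoma RNA in the Tnfsf9 values was not tested. With the melanoma covariate the estimate was 0.13 (95% interval -0.68 to 0.94), and in the 5 libraries left after WT 1, WT 2 and KO 3 were taken out it was -0.084. Gm11110, on the other strand, overlaps Tnfsf9 and had 182 counts in all, and the strand setting of the counting is not given in the sources used here. The receptor Tnfrsf9 (4-1BB) had 1.86 ± 0.783 FPKM in WT and 1.18 ± 0.420 FPKM in KO (log2 fold change -0.75 ± 0.402 SE, edgeR adjusted p = 0.492).

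Tnfsf14 (ENSMUSG00000005824, chromosome 17, 57496492 to 57501177, minus strand) encodes LIGHT, a ligand of the lymphotoxin beta receptor and of HVEM that T cells also make. It had 3.98, 5.55, 2.90 and 2.76 CPM in WT 1 to 4 and 5.39, 4.53, 2.10 and 2.10 CPM in KO 1 to 4. Values were high in libraries 1 and 2 and low in libraries 3 and 4 of both genotypes, and the genotypes overlapped throughout (log2 fold change -0.11 ± 0.397 SE, 95% interval -1.01 to 0.80; edgeR adjusted p = 0.893). The 10 T cell genes, Cd3e and Trac among them, had summed CPM of 138, 247, 86.5 and 80.6 (WT 1 to 4) and of 217, 156, 59.0 and 53.8 (KO 1 to 4). The order of the 8 libraries was the same for Tnfsf14 as for the T cell sum, a match noticed after the values were seen, among several members and marker lists. Tnfsf14 spanned 2.65-fold in CPM and 1.74-fold per T cell count, from 22.5 to 39.0 per 1000 counts of the T cell genes. The part of T cells in it was not tested. Its receptors were better expressed: Ltbr had 28.7 ± 3.23 FPKM in WT and 29.2 ± 4.64 FPKM in KO, and Tnfrsf14 (HVEM) 22.2 ± 6.41 and 16.5 ± 8.21 FPKM. Btla, the inhibitory receptor that HVEM engages, had 9.94 ± 2.94 and 9.60 ± 1.65 FPKM.

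**Figure D4:**
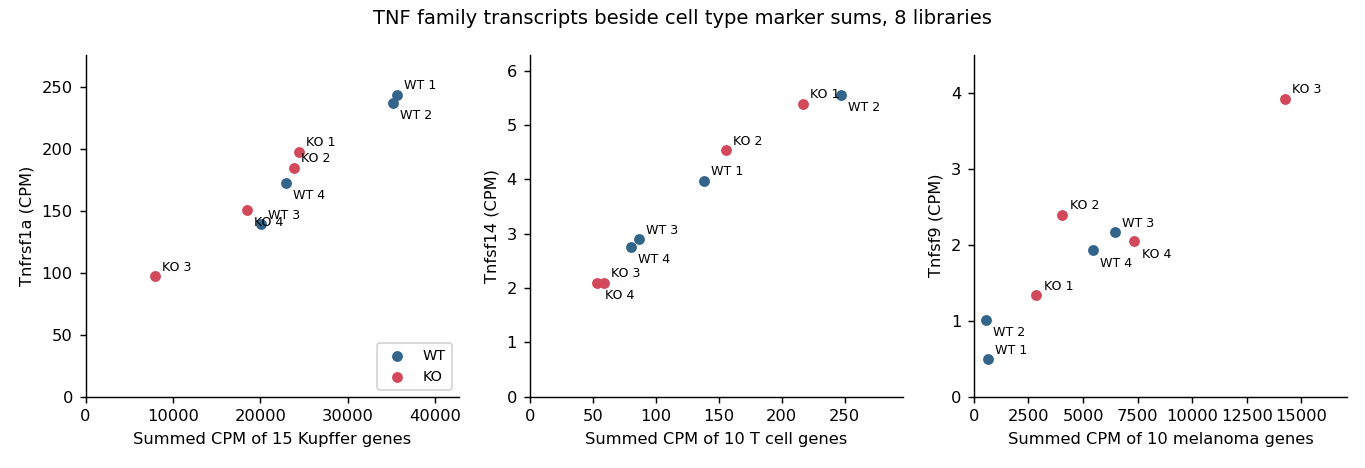
CPM of Tnfrsf1a, Tnfsf14 and Tnfsf9 (vertical axes) beside the summed CPM of 15 Kupffer, 10 T cell and 10 melanoma genes (horizontal axes), 1 labelled point per library, blue WT and red KO. Tnfsf14 and the T cell sum put the 8 libraries in the same order, and KO 3 has the lowest Tnfrsf1a and the highest Tnfsf9; all values share the same library totals.

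Tnfsf13b (ENSMUSG00000031497, chromosome 8, 10056467 to 10089072, plus strand), which encodes the B cell survival factor BAFF, had 13 to 44 counts in the WT and 14 to 31 in the KO libraries. That is 0.924, 2.30, 2.72 and 1.80 CPM in WT 1 to 4 and 0.889, 1.58, 0.773 and 1.41 CPM in KO 1 to 4, with overlap through WT 1 (log2 fold change -0.73 ± 0.401 SE, 95% interval -1.65 to 0.18; edgeR adjusted p = 0.492). Of its receptors, Tnfrsf13b (TACI) had 4.41 ± 0.835 FPKM in WT and 4.59 ± 0.690 FPKM in KO, above the ligand per length in every library. Tnfrsf13c (BAFF receptor) had 0.718 ± 0.212 and 0.495 ± 0.165 FPKM, and Tnfrsf17 (BCMA) 0.06 to 0.56 FPKM in WT and 0.13 to 0.51 FPKM in KO.

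The OX40 and CD27 axes had receptors but almost no ligand. For Tnfsf4 (OX40L) the counts were 3, 8, 2 and 0 (WT 1 to 4) and 0, 4, 2 and 14 (KO 1 to 4). Cd70, the ligand of CD27, had 0, 0, 3 and 1 counts in WT and 0, 0, 0 and 1 in KO. A count of 0 allows up to 3 counts, which is 0.153 to 0.213 CPM over the 8 libraries (counting error only). Fitted without the filter on low counts, the log2 fold change was 0.41 for Tnfsf4 (95% interval -2.07 to 2.90; edgeR adjusted p = 0.880) and -2.23 for Cd70 (-6.22 to 1.76; adjusted p = 0.595), intervals too wide to place either ligand higher or lower. Tnfrsf4 (OX40), mainly a T cell receptor, had 1.87 ± 0.380 FPKM in WT and 2.18 ± 0.986 FPKM in KO, and Cd27 2.17 ± 0.978 and 2.39 ± 1.40 FPKM. Cd27, like Tnfsf14, was highest in KO 1 and WT 2, the libraries with the largest T cell sums. Cd70, Tnfsf14 and Tnfsf9 lie next to each other on chromosome 17, between 57412325 and 57501177, and each had its own pattern over the libraries: at the floor, with the T cell sum, and highest in KO 3.

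The other genes of the pathway were read from 4 lists of binding partners, further superfamily members, receptor signalling, and TNF processing and induced genes. Of 86 tested, 0 passed in edgeR, DESeq2 or limma, and at an unadjusted p under 0.05 in edgeR 8 were lower and 2 higher, beside 4.56% and 4.23% of all genes. With the block 12 fell and 2 rose, beside 5.01% and 8.98% of all genes. Without pair 1, 2, 3 or 4 the blocked fit called 3, 0, 0 and 11 lower and 0, 0, 0 and 2 higher. The median log2 fold change was -0.05 over 14 partners, -0.15 over 17 further superfamily genes, -0.18 over 35 signalling genes and -0.41 over 20 processing and induced genes. With the melanoma covariate the last 2 medians were -0.02 and -0.05 (all genes 0.01), and scaled to Kupffer genes 0.56 and 0.35 (all genes 0.80).

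Among the signalling genes Nfkbia, the NF-kB inhibitor that NF-kB itself induces, was the most abundant, at 155 ± 27.2 FPKM in WT and 121 ± 42.4 FPKM in KO, and it fell with the block (log2 fold change -0.51 ± 0.128, edgeR adjusted p = 0.0417). So did Mlkl, the executor of necroptosis (-0.52 ± 0.1001, adjusted p = 0.0258), and Tnfaip3, the deubiquitinase A20 (-0.44 ± 0.0871, adjusted p = 0.0269). Without the block their adjusted p were 0.497, 0.492 and 0.492. With the block they were the 3 of 35 signalling genes called lower, beside 5.01% of all genes, and 0 were called higher, beside 8.98%. The part of the melanoma and Kupffer genes, which moved in the same fit, was not tested. Casp8, the initiator caspase of death receptors, had 61.5 ± 4.53 and 56.3 ± 7.73 FPKM, and Tab2, an adaptor of the kinase TAK1, 36.3 ± 1.82 and 32.9 ± 3.49 FPKM. Ripk3, the kinase upstream of MLKL, had 36.9 ± 7.73 and 30.4 ± 12.6 FPKM, with 12.0 FPKM in KO 3.

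In the list of TNF processing and induced genes, 7 of 20 fell and 1 rose with the block, beside 5.01% and 8.98% of all genes. The melanoma and Kupffer genes moved in the same fit, as given above, and their part in these calls was not tested. By smallest p these were Tnfaip2 (-0.59 ± 0.109), the chemokine Ccl2 (-0.93 ± 0.174), Zfp36 (-0.56 ± 0.105) and Tnfaip8 (-0.47 ± 0.103), all blocked log2 fold changes. Zfp36 had 261, 218, 281 and 223 FPKM in WT 1 to 4 and 210, 162, 190 and 148 FPKM in KO 1 to 4. Each KO library lay below every WT library for Zfp36, as for 2 of the 20 genes of this list in CPM, Zfp36 included, and 2.85% of all genes. Il1b, the interleukin-1 beta gene, had 212 ± 118 FPKM in WT and 101 ± 38.2 FPKM in KO and fell with the block (-1.07 ± 0.291, adjusted p = 0.0484; -1.18 ± 0.450, adjusted p = 0.492, without it). Vcam1, a vascular adhesion molecule that Kupffer cells also carry, had 108 ± 19.5 and 120 ± 61.3 FPKM. Of the further superfamily genes, Tnfrsf21 (death receptor 6) had 29.5 ± 7.52 FPKM in WT and 21.2 ± 6.38 FPKM in KO and fell with the block (-0.60 ± 0.126, adjusted p = 0.0291). Tnfrsf19 (TROY) rose with it (1.33 ± 0.244, adjusted p = 0.0254), at 0.24, 0.22, 1.44 and 1.38 FPKM in WT 1 to 4 and 0.64, 1.05, 3.49 and 2.55 FPKM in KO 1 to 4, in which WT 1 and WT 2 were again low and KO 3 highest. Tnfrsf11a (RANK) had 10.75 ± 2.50 and 10.3 ± 3.52 FPKM, and Relt 7.94 ± 0.984 and 7.94 ± 1.62 FPKM.

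The genes whose profile over the 8 libraries was nearest to a member's differed by member. Nearness was the root mean square difference in log2 CPM after each gene was centred on its mean, among genes with a mean FPKM of at least 1, and it rests on 8 libraries that share their scaling. Nearest to Tnf were Ptp4a1 (0.182), Ppp1r15a (0.184) and Jun (0.206); Jun and Ppp1r15a are stress-induced early response genes. Nearest to Tnfsf10 were Dnase1l3 (0.127), Fgl2 (0.136) and the interferon-induced Ifit3 (0.150). For Tnfsf9 they were Ptpn3 (0.134), Sntb1 (0.171) and Dut (0.184), and for Tnfsf14 Septin1 (0.111), Ptpn7 (0.121) and Ipcef1 (0.128). Cd40 was nearest to Ptpn18 (0.0937), Tmem170b (0.104) and Ly86 (0.114), Tnfrsf1a to Plek (0.0454) and Zbtb7b (0.0558), and Tnfrsf1b to Fam234a (0.0580), Tbc1d2b (0.0646) and Tor4a (0.0653).

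Promoter sequences from RefSeq (GRCm38.p6) were matched for 6 of the 10 members, and those of Tnf and Tnfsf10, the ligands with unlike nearest genes, and of the TNF receptors, which went together over the libraries, are shown. Each is the 250 bases before the annotated start, 5′ to 3′ on the gene's strand, with motif matches in capitals.
Tnf, chr17:35202008-35202257, minus strand: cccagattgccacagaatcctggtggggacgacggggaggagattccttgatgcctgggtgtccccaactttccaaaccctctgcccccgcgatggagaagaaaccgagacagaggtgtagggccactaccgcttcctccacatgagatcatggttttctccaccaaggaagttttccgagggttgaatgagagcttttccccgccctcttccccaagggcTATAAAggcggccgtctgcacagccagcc
Tnfsf10, chr3:27316827-27317076, plus strand: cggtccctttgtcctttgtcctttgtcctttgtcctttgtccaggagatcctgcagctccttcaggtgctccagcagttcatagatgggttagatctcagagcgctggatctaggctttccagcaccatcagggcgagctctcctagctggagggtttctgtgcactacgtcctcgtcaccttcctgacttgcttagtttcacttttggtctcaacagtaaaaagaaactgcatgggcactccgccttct
Tnfrsf1a, chr6:125349473-125349722, plus strand: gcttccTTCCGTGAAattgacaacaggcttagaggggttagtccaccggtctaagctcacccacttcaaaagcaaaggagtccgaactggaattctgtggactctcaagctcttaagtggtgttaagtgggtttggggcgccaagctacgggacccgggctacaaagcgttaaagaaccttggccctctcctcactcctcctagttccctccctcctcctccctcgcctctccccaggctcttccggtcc
Tnfrsf1b, chr4:145246871-145247120, minus strand: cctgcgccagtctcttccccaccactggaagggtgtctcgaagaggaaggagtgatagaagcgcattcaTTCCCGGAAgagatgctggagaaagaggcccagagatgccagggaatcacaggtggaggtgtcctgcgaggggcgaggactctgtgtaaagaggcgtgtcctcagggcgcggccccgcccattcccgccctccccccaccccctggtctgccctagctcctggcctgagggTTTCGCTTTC

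The motifs searched on both strands were the interferon-stimulated response element (GAAANNGAAA), the STAT site GAS (TTCNNNGAA), the AP-1 site (TGANTCA) and the NF-kB site by its kappa B consensus; the TATA box (TATAAA) was searched on the gene's strand. None of the motifs overlapped another in these windows. The Tnf window held a TATA box 29 to 24 bases before the start, as 7.59% of 32851 windows hold one. Both receptor windows held 1 GAS match, at 244 to 236 bases before the start in Tnfrsf1a and 181 to 173 in Tnfrsf1b, a motif found in 7.02% of windows. Tnfrsf1b also held a response element match in its last 10 bases, found in 2.98% of windows. The Tnfsf10 window held no match to the 5 motifs. AP-1 and kappa B matches occurred in 6.75% and 3.90% of all windows. None of the 4 windows shown held either, but the other 2 members with a promoter held an AP-1 match, 127 to 121 bases before the start in Tnfsf13b and 160 to 154 in Tnfsf14. Tnfsf13b also held a response element match at 16 to 7 bases.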

How the data were processed

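RNA was measured in 8 libraries of sorted Kupffer cells, 4 per genotype. Per the file headers, the authors deposited read counts and FPKM of each gene and library. HTSeq 0.6.1 and mm10 are named in the submitters' processing notes. The sources used here name no aligner, strand setting or annotation release. Of 52073 genes shared with GENCODE M21 (GRCm38), 1472 had the same position, and none of the 10 members did, so the deposited positions do not go with mm10. The other numbers the authors deposited, gene positions and sizes, are given as deposited. Deposited gene positions cannot be set against the promoter positions, which are on GRCm38.p6. Column letters C and K were read as WT and KO. All value columns were mapped.

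Genes were filtered by filterByExpr (15870 of 56691 kept), scaled by TMM and tested in edgeR 4.0.16 (R 4.3.3) by the 2-sided quasi-likelihood F test, adjusted by Benjamini-Hochberg across the 15870 genes, at a threshold of 0.05. SEs were the unshrunken log2 fold change over the root of F. Log2 CPM for profiles used a prior count of 2. DESeq2 1.42.0 and limma 3.58.1 (on log2(FPKM + 1)), no filter, no TMM, Kupffer scaling, a melanoma covariate, the replicate block and left-out libraries were alternatives; the block without single pairs was added after the data were seen. The code was tested on simulated data. Deviations from genotype means correlated between same-numbered libraries at 0.561, 0.544, 0.660 and 0.290, all above 0.1, so blocked values are given; the labels state no pairing. The chi-square per degree of freedom between libraries of a genotype was at least 10.02, so none was counted as a duplicate.

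The members, lists and tests were chosen with earlier results of these data known. Named were all members, all partners with a mean FPKM of at least 0.1, Vsig4, from each other list the 3 highest by FPKM and up to 4 past the threshold with or without the block by smallest p, and the 3 nearest profiles, of which 1 is not reported here. Ripk3 was added after its values were seen.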

Additional observations from a re-analysis of the deposited data

Results flagged for a closer look

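Cd70 in the KO libraries was the single case flagged for 1 library of 4 far from the rest: KO 4 had 0.0524 CPM and the other 3 had 0. The value rests on 1 count, so that the gap is the whole range by construction. Cases that the flag did not take in were Tnf, at 27.8 CPM in KO 3 and 9.79 to 15.8 CPM in the other KO libraries, and Tnfsf4, with 14 counts in KO 4 and 0 to 4 in the others.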

How the results depend on the processing

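Same-numbered libraries share only a number in the labels, and the replicate block changed counts of calls most. With the replicate block, 1425 genes were higher and 795 lower in KO, of the members 0 and 2, and of the other TNF lists 2 and 12. Without pair 1, 2, 3 or 4 the blocked counts were 43, 1, 0 and 1475 higher and 164, 1, 1 and 754 lower, members lower 1, 0, 0 and 1, and other TNF genes 0, 0, 0 and 2 higher and 3, 0, 0 and 11 lower. WT 1, WT 3, KO 2 and KO 3 correlated best with their own number and the other 4 libraries with another. Without the block 0 genes were higher and 1 lower. DESeq2 called 30 higher and 36 lower, no filter 1 higher, and leaving out single libraries 0 to 1 higher; the causes were not tested.

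The estimates of Tnfsf10 and Tnfsf13b were negative under all alternatives, but Tnfsf10 passed the threshold only with the block and Tnfsf13b in no setting (adjusted p at least 0.216). Scaling by Kupffer genes, which moved the median gene to 0.80, gave log2 fold changes of 0.56 for Tnf, 0.56 for Tnfsf14, 0.059 for Cd40, 0.37 for Tnfrsf1a and 0.38 for Tnfrsf1b. The melanoma covariate gave 0.41 for Tnfsf14, 0.069 for Tnfrsf1a, 0.13 for Tnfrsf1b and 0.13 for Tnfsf9. Negative estimates stayed with it for Tnf (-0.79), Tnfsf10 (-0.56), Tnfsf13b (-0.86) and Cd40 (-0.25). Without WT 1, WT 2 and KO 3 the values were -0.084 for Tnfsf9, 0.50 for Tnfsf14, 0.19 for Tnfrsf1a and 0.28 for Tnfrsf1b. They were -1.03 for Tnf, -0.45 for Tnfsf10, -0.80 for Tnfsf13b and -0.14 for Cd40. In both settings Tnf and Tnfsf13b lay further below 0 than in the main fit (-0.49 and -0.73). Leaving out single libraries, Tnfsf14 ranged from -0.39 to 0.14, above 0 without WT 2, KO 3 or KO 4. With 4 libraries a genotype and a biological coefficient of variation of 33.3%, intervals are wide, and Tnfsf4 and Cd70 lie at the limit of depth.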
